A study of Mus musculus with 22 samples.

Results

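Voltage-gated calcium channels open when a neuron is depolarized and let calcium in, and each channel is built around 1 alpha subunit that forms the pore and senses voltage. Cacna1c and Cacna1d encode L-type alpha subunits, which sit mainly on cell bodies and dendrites and couple activity to gene transcription. Cacna1a (P/Q-type), Cacna1b (N-type) and Cacna1e (R-type) encode channels that serve transmitter release and dendritic calcium entry, and Cacna1g, Cacna1h and Cacna1i encode T-type channels, which open at low voltage and shape burst firing. These 8 genes were picked by name as a family, with earlier results of these data known, from the 23361 genes of the expression matrix, and all 8 were among the 16978 genes tested.

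Messenger RNA was sequenced from microdissected hippocampal CA1 tissue of 22 mice, 1 library per mouse. All were wild-type females of the cross Swiss Webster x DBA/C57BL6 F1, fed ad libitum on a normal diet (AL) or kept on calorie restriction (CR), a diet with reduced carbohydrates. At 5 months of age each diet had 5 mice and at 15 months 6 mice, each numbered from 0 within its group. The diets began at the same young age, so the 15 month CR mice had been restricted for longer. Age and time on the diet therefore cannot be told apart among CR mice. Levels are FPKM, fragments scaled for transcript length and for library size, so they can be set side by side between genes.

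The channel classes can be told apart in the coding sequence. In the 5 high-voltage-activated members (L-, P/Q-, N- and R-type) the loop after the first repeat carries the alpha interaction domain, the stretch to which the auxiliary beta subunit binds. It was found once in each of these 5 members and in none of the 3 T-type members, which do not depend on beta subunits. The spliced coding sequence of this domain, from GENCODE M21 on GRCm38, is printed here because it marks the L-type pair off from the other high-voltage members.
Cacna1c, chr6:118734906-118734959, minus strand: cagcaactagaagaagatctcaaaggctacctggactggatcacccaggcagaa
Cacna1d, chr14:30142600-30142653, minus strand: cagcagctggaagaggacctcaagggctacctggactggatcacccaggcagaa
Cacna1a, chr8:84536125-84536403, plus strand, across an intron: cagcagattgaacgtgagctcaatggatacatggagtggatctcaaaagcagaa
Cacna1b, chr2:24719100-24719992, minus strand, across an intron: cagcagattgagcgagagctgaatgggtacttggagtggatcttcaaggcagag
Cacna1e, chr1:154488837-154493353, minus strand, across an intron: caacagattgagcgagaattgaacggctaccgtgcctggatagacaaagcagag
The L-type pair shared 49 of 54 bases (90.7%). Cacna1a and Cacna1b shared 83.3%, and the L-type members shared between 63.0% and 74.1% with the other 3.

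The pore loop of the third repeat separates the T-type members. The capitals mark the codon of the residue that lines the selectivity filter, a glutamate codon (GAA or GAG) in the high-voltage members and an aspartate codon (GAT) in the T-type members. The sequences are shown for 1 high-voltage L-type member and for the 3 T-type members. These include Cacna1h, the 1 member with an adjusted p under 0.05 in the fit of all mice.
Cacna1c, chr6:118654452-118656138, minus strand, across an intron: gtctccaccttcGAAgggtggccagagctg
Cacna1g, chr11:94426456-94426485, minus strand: ctggcctccaagGATggctgggttgacatc
Cacna1h, chr17:25383493-25383522, minus strand: ctgtcatccaagGATggctgggtaaacatc
Cacna1i, chr15:80376795-80376824, plus strand: ttggcctccaagGATggctgggtgaacatc
Within this window the T-type members shared 26 or 27 of 30 bases with each other, and Cacna1c shared 14 or 15 with them. The 8 genes lie on 8 chromosomes, so none of them overlaps another.

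All 8 alpha subunits were detected in all 22 libraries. Cacna1e (R-type) had the highest level, 29.1 ± 5.02 FPKM (mean ± SD, n = 22 mice), and Cacna1d (L-type) the lowest, 8.36 ± 1.22 FPKM. Between them came Cacna1a at 22.4 ± 3.86 FPKM, Cacna1b at 21.5 ± 4.28 FPKM, Cacna1h at 17.7 ± 5.55 FPKM, Cacna1g at 15.7 ± 3.71 FPKM, Cacna1i at 10.8 ± 1.86 FPKM and Cacna1c at 9.73 ± 2.65 FPKM. Some neighbours in this order were not separated beyond their spread. Cacna1e was above Cacna1a in 20 of 22 libraries and Cacna1g was above Cacna1i in 21, whereas Cacna1a was above Cacna1b in 11, Cacna1h above Cacna1g in 12 and Cacna1i above Cacna1c in 13. Cacna1h was the higher of the pair with Cacna1g in 5 of 5 AL mice at 5 months and in 1 of 6 at 15 months, but in CR mice it was the higher in 2 of 5 at 5 months and in 4 of 6 at 15 months.

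Cacna1h had the widest range over the libraries, 3.95-fold from lowest to highest, and Cacna1d and Cacna1a the narrowest, 1.86-fold and 1.87-fold. Within groups, the SD of log2(FPKM + 0.1) was 0.39 for both Cacna1c and Cacna1h and 0.21 for Cacna1d. The median of this SD was 0.17 over the 8329 genes of similar level, 5 to 50 FPKM, so each alpha subunit varied more between mice of 1 group than the median gene of its level.

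**Figure D1:**
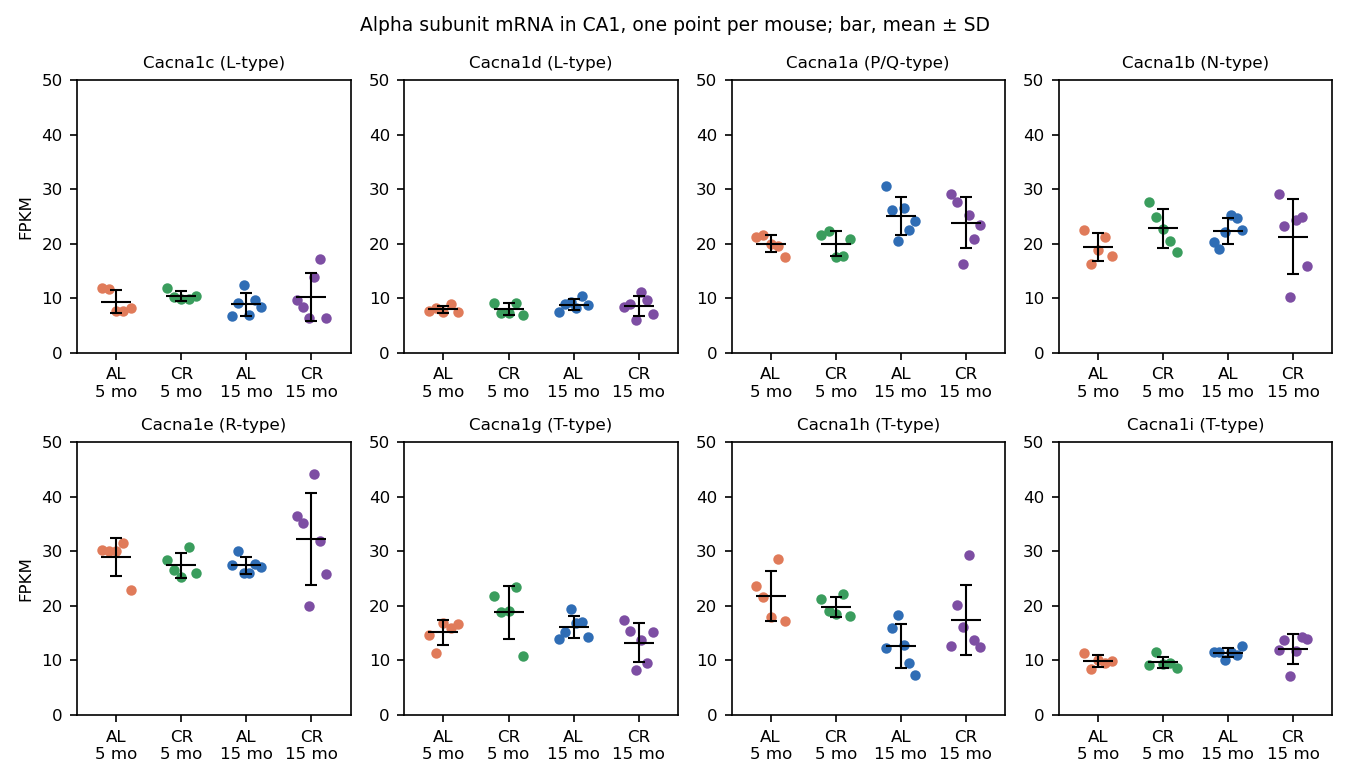
FPKM of the 8 alpha subunits in the 4 groups (AL and CR, 5 and 15 months), 1 point per mouse, with the group mean and SD as bars. Cacna1h fell from a mean of 21.8 ± 4.60 FPKM (AL, 5 months) to 12.7 ± 4.01 FPKM (AL, 15 months) in limma's test, and the 15 month CR mice spread widely for most members.

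The authors took the comparison of AL mice at 15 and 5 months as that of normal aging in CA1. Cacna1h was the 1 alpha subunit with an adjusted p under 0.05, and its mean level fell by 41.9% at 15 months. The values in the 5 month AL mice were 23.7, 21.7, 17.97, 28.6 and 17.3 FPKM. In the 15 month AL mice the lowest was 7.42, the median 12.5 and the highest 18.3 FPKM. Every 15 month AL mouse was below the median of the 5 month AL mice, although the highest of them reached into the range of the younger group. The log2 fold change, the fitted difference of group means of log2(FPKM + 0.1), was -0.82 (SE 0.22, 95% confidence interval -1.28 to -0.36), with a Benjamini-Hochberg adjusted p of 0.0135 in limma over all genes tested. An exact permutation test of these means, two-sided, gave p = 0.0152, where 0.0022 is the smallest p that 5 against 6 mice allow. Thus 1 of 8 alpha subunits passed the threshold of an adjusted p under 0.05 in this comparison, where 20.6% of all genes tested did so, 10.7% with a higher and 9.97% with a lower level at 15 months. A count of 1 among 8 members is not set apart from that share.

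Levels of several marker lists also differed between the AL mice of 15 and 5 months. The CA1 pyramidal neuron marker score (mean log2(FPKM + 0.1) of 6 genes) was between 5.13 and 6.25 in the AL mice at 5 months and between 3.30 and 4.90 at 15 months, with no overlap. The 6 markers were unequal. Fibcd1 had mean levels of 62.0 and 10.1 FPKM at 5 and 15 months and Spink8 68.0 and 6.21 FPKM, while Mpped1 had 118 and 103 FPKM and Wfs1 had 56.5 and 83.4 FPKM. The dentate gyrus score (5 genes) was also lower at 15 months, with a mean of 0.69 against 2.72. The neocortex and subiculum score (8 genes) had a higher mean, 3.16 against 2.68, with overlapping ranges of 2.70 to 3.48 and 2.44 to 3.09. Its markers were unequal too. Tbr1, Rorb, Fn1, Tshz2 and Foxp2 had higher mean levels at 15 months. Lower at 15 than at 5 months were Fezf2 (18.4 against 22.9 FPKM), Etv1 (23.2 against 36.5 FPKM) and Nts (5.62 against 6.82 FPKM). Lists of cells outside the neuron layers differed as well. The oligodendrocyte score (6 genes) had a mean of 6.14 at 15 months against 6.98 at 5 months, with the myelin gene Mbp at 441 against 726 FPKM, and the choroid plexus score (6 genes) had a mean of -1.68 against 0.21. The part of these lists in the Cacna1h values was not tested. With the neocortex and subiculum score minus the CA1 score as a covariate, the log2 fold change of Cacna1h was -0.17 (adjusted p = 0.833 in limma). In that fit 6 genes were called in all in place of 3502. This covariate ran from -3.63 to -2.04 in the AL mice at 5 months and from -1.48 to -0.28 at 15 months. The lack of overlap holds for the AL mice alone. All 4 groups were in the fit, and the CR scores did overlap between the ages (-3.95 to -2.82 in the younger, -3.79 to -0.72 in the older). Within groups, Cacna1h had a Pearson r of -0.60 with this score. For the AL mice the adjusted difference with age rests on the slope within groups. Whether that slope holds across the gap between the AL ages was not tested. In bulk tissue, a difference in what the microdissection took, fewer cells of a type and less RNA per cell cannot be told apart.

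**Figure D2:**
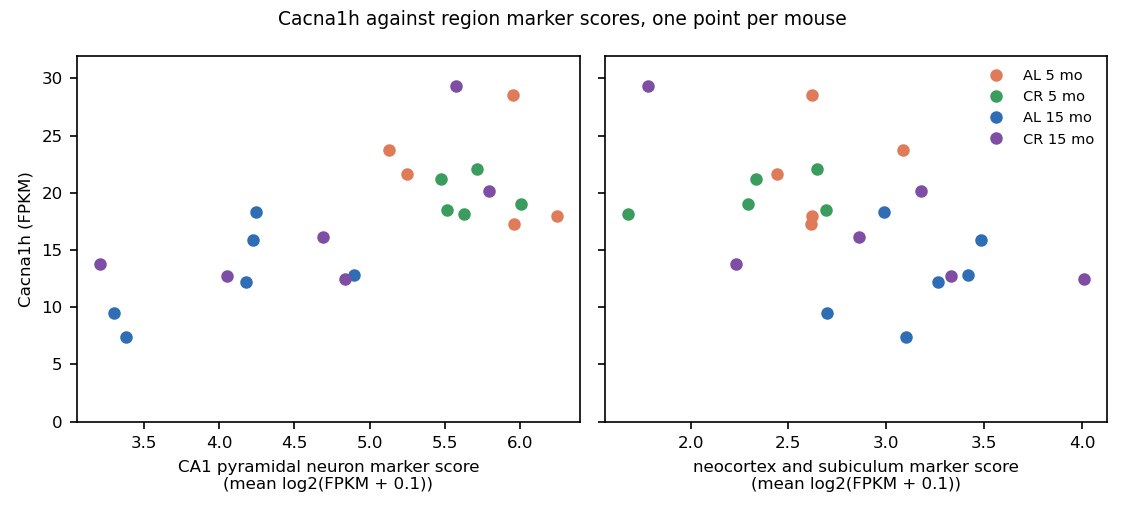
Cacna1h in FPKM (vertical) against the marker score of CA1 pyramidal neurons (left) and of neocortex and subiculum (right), 1 point per mouse, colored by group. The 15 month AL mice lie at CA1 scores of 3.30 to 4.90 and Cacna1h levels of 7.42 to 18.3 FPKM, and the 5 month AL mice at scores of 5.13 to 6.25 and 17.3 to 28.6 FPKM.

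The other T-type members did not pass the threshold with age in AL mice, and their fitted differences were in the other direction. Cacna1g had mean levels of 15.1 ± 2.28 (n = 5) and 16.1 ± 2.05 FPKM (n = 6) at 5 and 15 months. Cacna1i, the smallest of the T-type levels, was 11.4, 8.49, 10.1, 9.45 and 9.94 FPKM in the 5 month mice, and its lowest, median and highest values at 15 months were 10.01, 11.5 and 12.6 FPKM. All 6 of the older AL mice were above the Cacna1i median of the younger group. The log2 fold change was 0.20 (SE 0.14, interval -0.08 to 0.49, adjusted p = 0.291 in limma). The exact permutation test gave p = 0.0281, without adjustment for the 8 members and the 5 pairs of groups tested.

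Cacna1a, the pore of the P/Q-type channel that drives release at many central synapses, came closest to the threshold in the other direction. The 5 month AL mice had 21.3, 21.7, 20.0, 19.6 and 17.5 FPKM, and the 15 month AL mice had a lowest value of 20.5, a median of 25.1 and a highest value of 30.6 FPKM. All 6 older mice were above the median of the younger mice, with 1 of them inside the younger range. The log2 fold change was 0.31 (SE 0.12, interval 0.05 to 0.57), with an unadjusted p of 0.0202 and an adjusted p of 0.0777 in limma and an exact permutation p of 0.0152. At an unadjusted p under 0.05, 2 of 8 members passed, Cacna1a and Cacna1h, against 35.2% of all genes. Cacna1a was called by limma in a fit of the AL groups alone (adjusted p = 0.0368) and with the replicate number as a block (0.0207). It was also called without the 15 month AL replicate 2 (0.0455) or the 15 month CR replicate 2 (0.0317). In the other fits that left out 1 library it was not called, with an adjusted p of up to 0.178. Nor was it called with the covariate used for Cacna1h above (0.443), a thalamus score as covariate (0.134) or scaling to a common median (0.124).

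Neither L-type member passed the threshold with age in AL mice. Cacna1c had 9.40 ± 2.14 FPKM at 5 months and 8.86 ± 2.03 FPKM at 15 months (log2 fold change -0.08, interval -0.55 to 0.38, adjusted p = 0.819 in limma). Cacna1d had 7.96 ± 0.58 and 8.84 ± 1.001 FPKM (0.15, interval -0.12 to 0.41, adjusted p = 0.432). The interval of Cacna1c reaches past the fitted difference of Cacna1a in both directions. Cacna1b, the N-type pore, had 19.3 ± 2.56 and 22.3 ± 2.44 FPKM (0.21, interval -0.19 to 0.61), and Cacna1e, the R-type pore, had 28.9 ± 3.45 and 27.4 ± 1.49 FPKM (-0.07, interval -0.36 to 0.22). The median log2 fold change of the 8 members was 0.12, beside -0.0018 for all genes tested.

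The comparison of CR with AL mice at 15 months asks whether the diet alters the older state. It uses the same AL mice at 15 months as the comparison with age, so the values are not independent of it. By limma, 0 of 8 alpha subunits were called (0.742% of all genes were), and 1, Cacna1h, had an unadjusted p under 0.05, beside 17.1% of all genes. Cacna1h in the 15 month CR mice ranged from 12.4 to 29.3 FPKM with a median of 14.9, around a mean of 17.4 ± 6.49 FPKM. In 5 of 6 CR mice it was above the AL median of 12.5 FPKM, while 2 CR mice, replicates 1 and 3 with 20.2 and 29.3 FPKM, were above the AL range. The log2 fold change was 0.44 (SE 0.21, interval 0.00 to 0.88, unadjusted p = 0.0478, adjusted p = 0.286 in limma, exact permutation p = 0.143). For the other 7 members the log2 fold change lay between -0.32 (Cacna1g) and 0.19 (Cacna1e). The L-type members had differences of 0.14 (Cacna1c, interval -0.30 to 0.58) and -0.07 (Cacna1d, interval -0.32 to 0.18). The CA1 marker score was between 3.21 and 5.79 in the 15 month CR mice, overlapping that of the AL mice of that age. The dentate gyrus score ran from -0.44 to 4.41 in these CR mice and from -0.76 to 2.10 in those AL mice. Its highest CR value was in replicate 3, which also had the highest Cacna1h level. Over the 22 libraries Cacna1h had a Pearson r of 0.75 with the CA1 score and 0.75 with the dentate gyrus score. The part of the CA1 score in these values was not tested beyond the covariate fit, where Cacna1h differed by 0.17. That of the dentate gyrus score was not tested.

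At 5 months, the effect of the shorter period of CR was compared. By limma, 0 of 8 members were called, and 0 of 8 had an unadjusted p under 0.05, where over all 16978 genes 0% were called and 4.65% had an unadjusted p under 0.05. The log2 fold changes lay between -0.12 (Cacna1h) and 0.28 (Cacna1g). Cacna1d was 7.96 FPKM in both groups, and Cacna1a was 20.0 FPKM in both. The intervals were widest for Cacna1c, -0.31 to 0.66, and Cacna1h, -0.60 to 0.36.

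Among CR mice, 15 against 5 months, 0 of 8 members were called by limma (3.36% of all genes were) and 2 had an unadjusted p under 0.05, beside 18% of all genes. Cacna1g, a T-type pore known from thalamic burst firing, was 21.9, 18.8, 19.2, 23.5 and 10.8 FPKM in the 5 month CR mice, and its lowest, median and highest values in the 15 month CR mice were 8.18, 14.4 and 17.4 FPKM. All 6 older mice were below the median of the younger mice, while 1 younger mouse, replicate 4, lay within the range of the older ones. The log2 fold change was -0.50 (SE 0.20, interval -0.91 to -0.10, unadjusted p = 0.0176, adjusted p = 0.168 in limma, exact permutation p = 0.0974). Without the 5 month CR replicate 4 it was -0.69 with an adjusted p of 0.0430. Cacna1i was 9.15, 11.5, 9.31, 9.53 and 8.68 FPKM in the 5 month CR mice, against a lowest value of 7.08, a median of 12.8 and a highest value of 14.4 FPKM at 15 months. In 5 of 6 older mice it was above the younger median, and the exception was replicate 2. The log2 fold change was 0.30 (SE 0.14, unadjusted p = 0.0395, adjusted p = 0.247 in limma, exact permutation p = 0.136), and without the 15 month CR replicate 2 it was 0.44 with an adjusted p of 0.00765. For Cacna1h the log2 fold change with age in CR mice was -0.25 (interval -0.71 to 0.21), and it turned to 0.21 with the region score as a covariate (adjusted p = 0.727).

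The age by diet interaction, the change with age in CR mice minus that in AL mice, tests whether these changes differed. The longer time on the diet of the older CR mice is part of it. By limma, 0 of 8 members were called, 0% of all genes were, and 1 member had an unadjusted p under 0.05 beside 7.66% of all genes. That member was Cacna1g, with an interaction of -0.60 (interval -1.17 to -0.02, unadjusted p = 0.0421, adjusted p = 0.639). For Cacna1h the interaction was 0.57 (interval -0.09 to 1.22, unadjusted p = 0.0849, adjusted p = 0.678), so its fall in AL mice was not shown to differ from its change in CR mice. When the 15 month CR mice were set against the 5 month AL mice, 0 of 8 members were called (3.12% of all genes were) and 0 of 8 had an unadjusted p under 0.05, beside 19.3% of all genes, with log2 fold changes between -0.37 (Cacna1h) and 0.26 (Cacna1i). Without the 15 month CR replicate 2, Cacna1i was called there too, at 0.41 with an adjusted p of 0.0127. These comparisons share groups with each other. In none of the 5 pairs of groups did the libraries of any member separate without overlap, which 14% of all genes did for age in AL mice, 3.26% for age in CR mice, 0.984% and 1.36% for the diets at 15 and 5 months, and 2.94% between 15 month CR and 5 month AL mice.

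**Figure D3:**
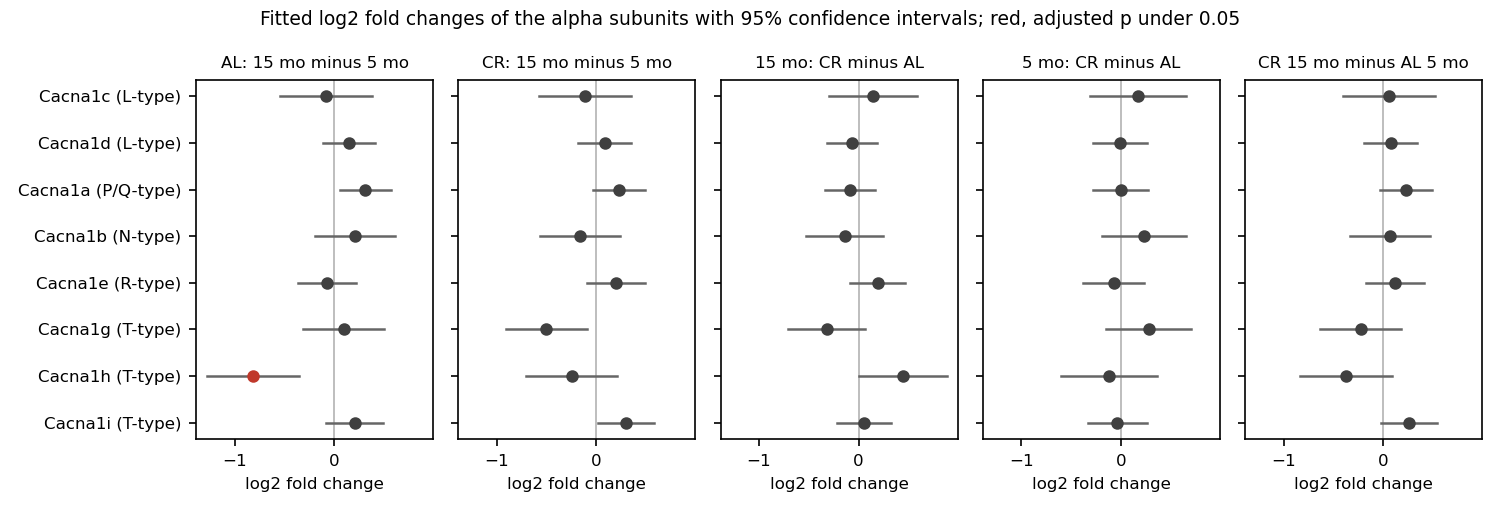
Fitted log2 fold changes (horizontal) with 95% confidence intervals for the 8 alpha subunits in the 5 pairs of groups. The 1 red point is Cacna1h with age in AL mice, -0.82, the only value with an adjusted p under 0.05.

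The balance between channel classes was described as each class's share of the summed FPKM of the 8 genes, without a test. The 2 L-type genes among these 8 together held 13.1 ± 1.54% (AL) and 13.4 ± 0.72% (CR) at 5 months, with n = 5 for each diet. At 15 months they held 13.3 ± 1.91% (AL) and 13.5 ± 2.92% (CR), with n = 6. The 4 means lay within the spread of any 1 group. The other 6 genes summed to 6.70, 6.45, 6.63 and 6.65 times the L-type level in the same order of groups. Within the L-type pair, Cacna1c was 1.19, 1.32, 0.998 and 1.18 times Cacna1d on average, and it was the higher of the pair in 15 of 22 libraries.

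The T-type share was 35.4 ± 2.29% in AL and 35.1 ± 2.64% in CR mice at 5 months, and 30.2 ± 2.57% and 31.1 ± 3.57% at 15 months. P/Q-type, which is Cacna1a alone, took 15.1 ± 1.11% and 14.7 ± 1.97% at 5 months and 18.9 ± 2.88% and 17.3 ± 2.15% at 15 months. For N-type the shares were 14.6 ± 1.18% and 16.6 ± 1.71% at 5 months and 16.8 ± 1.94% and 15.005 ± 2.78% at 15 months, and for R-type 21.8 ± 1.61% and 20.1 ± 1.38%, then 20.7 ± 1.29% and 23.0 ± 1.38%. Within the T-type sum, Cacna1h held 46.4 ± 6.52% in AL mice at 5 months and 31.0 ± 6.62% at 15 months, with 41.4 ± 3.91% and 40.4 ± 10.2% in the CR mice. The summed level of all 8 genes had group means from 133 to 139 FPKM, and it ran from 90.3 to 174 FPKM among the 15 month CR mice.

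**Figure D4:**
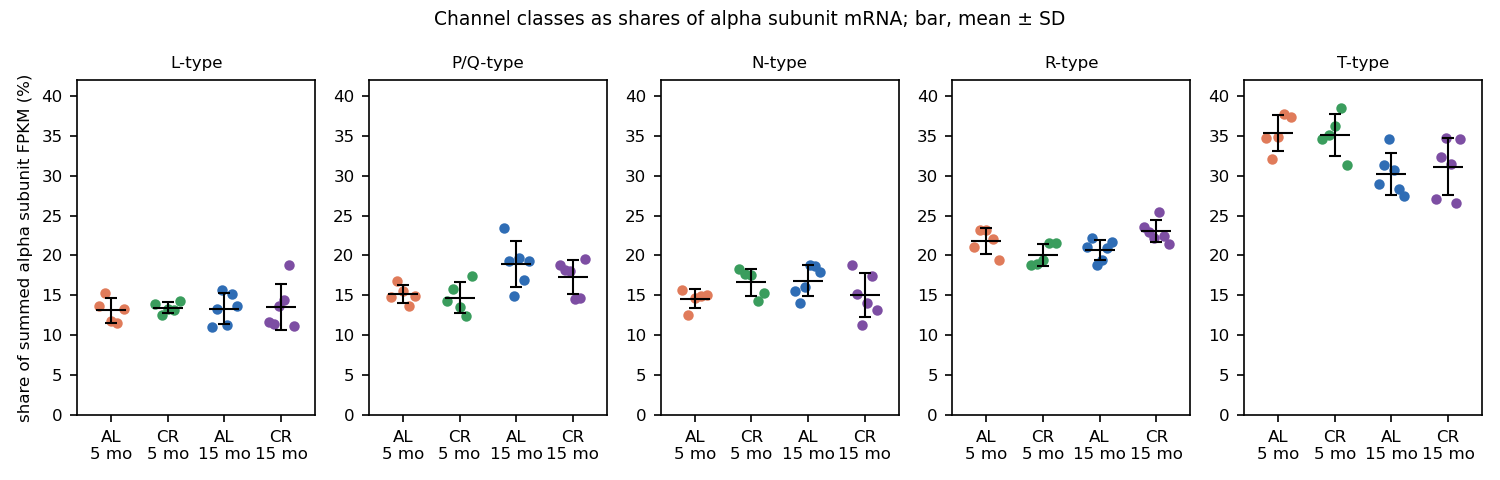
Share of the summed alpha subunit FPKM (percent) held by each channel class in the 4 groups, 1 point per mouse, with mean and SD as bars. The L-type means lie between 13.1% and 13.5%, and the T-type means between 30.2% and 35.4%.

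Part of the spread was common to several members and followed single libraries. The 15 month CR replicate 2 had the lowest value of all 22 libraries for 7 of the 8 members, with Cacna1h as the exception, and replicates 3 and 4 of that group had the highest for 3 and 2 members. All 8 transcripts are long, from 7926 to 14921 bases, above 94.5% or more of the genes with a length. In each library the median deviation of long transcripts (at least 6000 bases) minus that of short ones (at most 2000 bases) was computed on the log2 scale. It was -0.36 in the 15 month CR replicate 2 and between -0.19 and 0.22 in the other 21 libraries, with the 2 highest values in replicates 4 and 3 of the same group. The group means were -0.07 and -0.05 in AL and CR mice at 5 months and 0.07 and 0.05 at 15 months. With the trend on transcript length removed within each library, Cacna1h still fell with age in AL mice (-0.88, adjusted p = 0.00881 in limma), and Cacna1a had a log2 fold change of 0.26. The other 6 values moved by more, to 0.06 for Cacna1d, 0.13 for Cacna1b, 0.12 for Cacna1i, 0.03 for Cacna1g, -0.17 for Cacna1c and -0.15 for Cacna1e, and the median of the 8 members to 0.05.

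**Figure D5:**
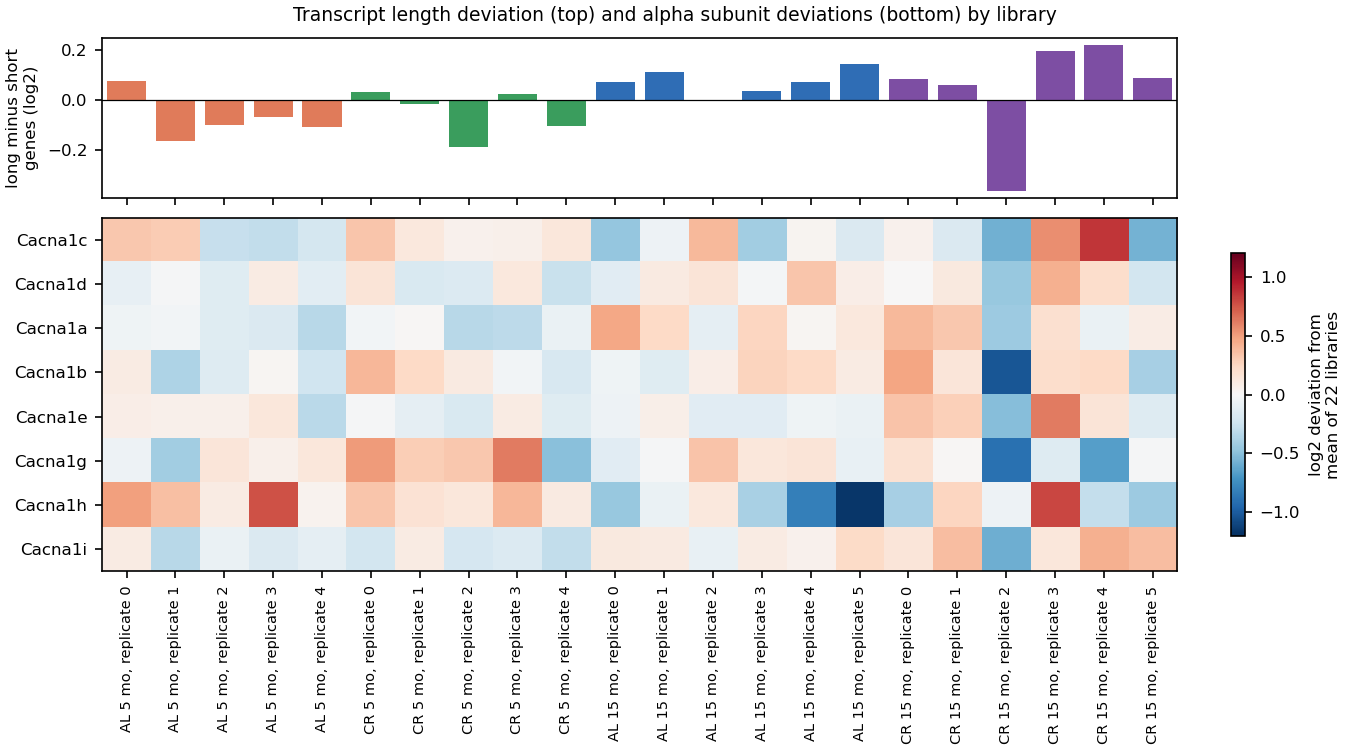
Top, long minus short transcripts (median log2 deviation) in each of the 22 libraries. Bottom, the log2 deviation of each alpha subunit from its own mean over the libraries, on a color scale from blue (lower) to red (higher). The 15 month CR replicate 2, with -0.36 at the top, is blue for 7 of 8 members.

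Over the 22 libraries, the log2 levels of the 28 pairs of members had Pearson correlations from -0.37 to 0.70 with a median of 0.33, given as a description. Without the 15 month CR replicate 2 they ran from -0.45 to 0.60 with a median of 0.21. The highest was that of Cacna1d and Cacna1e, 0.70 (Spearman rho 0.65). The lowest was that of Cacna1h and Cacna1i, -0.37 (rho -0.42), both of them T-type. The points share the libraries. Members followed the length deviation of the libraries unequally, with a Pearson r from -0.24 for Cacna1h and 0.20 for Cacna1g to 0.85 for Cacna1i.

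The genes whose pattern over the 22 libraries was most like a member's were sought among 13838 others with a mean of at least 1 FPKM, by Pearson r of log2(FPKM + 0.1). For Cacna1h these were Atf6b (0.93), Bcl11b (0.91) and Dcakd (0.90). These were picked for following Cacna1h over the same libraries, so their log2 fold changes with age in AL mice, -0.32, -1.14 and -0.84, are no separate evidence. For Cacna1a they were Setd1b (0.86), Mafg (0.85) and Tmem151b (0.83). For the L-type genes they were Cers6 (0.86), C77370 (0.84) and Erc2 (0.83) beside Cacna1c, and Ercc6 (0.89), Otud4 (0.86) and Cep192 (0.84) beside Cacna1d. Cacna1b was most like AA474331 (0.76), Ehmt1 (0.76) and Foxj3 (0.75), and Cacna1e was most like Celf2 (0.89), Trrap (0.82) and Mcm3ap (0.82). For the remaining T-type genes they were Grin3a (0.84), Pnma1 (0.82) and Tle3 (0.81) beside Cacna1g, and Gapvd1 (0.88), Epg5 (0.86) and Sos1 (0.84) beside Cacna1i. The median transcript of the 22 of these 24 genes with a length was 7422.5 bases, against 3359 bases for all genes compared. Those named beside Cacna1h had 2566 (Atf6b), 8111 (Bcl11b) and 1744 bases (Dcakd).

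High-voltage channels are assembled with auxiliary beta and alpha2-delta subunits, which bring the pore to the membrane and tune its gating. Of these 8 genes, 1 rose and 1 fell with age in AL mice, where 10.7% of all genes were called higher and 9.97% lower. Cacnb4 rose from 23.9 ± 3.45 to 40.6 ± 13.0 FPKM (log2 fold change 0.70, SE 0.19, adjusted p = 0.0130 in limma). Cacnb2 fell from 25.6 ± 3.04 to 14.5 ± 2.23 FPKM (-0.82, SE 0.14, adjusted p = 6.58e-04). Cacnb2 also fell with age in CR mice (-0.54, adjusted p = 0.0290) and was lower in 15 month CR than in 5 month AL mice (-0.52, adjusted p = 0.0408). These last 2 calls were kept in 15 and 12 of the 22 fits that leave out 1 library. Over all genes, 1.1% were called higher and 2.26% lower with age in CR mice, and 1.38% higher and 1.73% lower in 15 month CR than in 5 month AL mice. None of the 4 alpha2-delta genes was called in any comparison by limma, and 1 of them had an unadjusted p under 0.05 with age in AL mice.

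The gamma family is named after a subunit of the muscle channel, and several members are known as partners of AMPA-type glutamate receptors. Of 8 genes 7 were tested, and with age in AL mice 1 rose and 1 fell, beside the same 10.7% and 9.97% of all genes. Cacng3 rose from 41.3 ± 5.95 to 72.7 ± 9.15 FPKM (0.82, SE 0.14, adjusted p = 6.50e-04 in limma). It also rose with age in CR mice (0.80, adjusted p = 0.00177) and was higher in 15 month CR than in 5 month AL mice (0.52, adjusted p = 0.0399), the latter in 14 of the 22 fits without 1 library. Cacng8 fell from 83.0 ± 7.89 to 37.4 ± 8.13 FPKM (-1.17, SE 0.20, adjusted p = 7.24e-04). Both encode such AMPA receptor partners.

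Among 12 regulators and partners of the channels, 3 rose and 2 fell with age in AL mice, again beside 10.7% and 9.97% of all genes. Rem2, a small GTPase that inhibits high-voltage channels, fell from 12.9 ± 2.50 to 3.98 ± 1.44 FPKM (-1.72, SE 0.31, adjusted p = 9.86e-04 in limma). It also fell with age in CR mice (-1.35, adjusted p = 0.0173) and was lower in 15 month CR than in 5 month AL mice (-1.50, adjusted p = 0.0111). Stac, an adaptor that binds L-type channels, fell from 4.69 ± 1.98 to 0.668 ± 0.394 FPKM (-2.73, SE 0.54, adjusted p = 0.00181). Rims1 and Rims2, which tether presynaptic calcium channels at the active zone, rose by 0.47 (adjusted p = 0.0477) and 0.52 (adjusted p = 0.0319) on the log2 scale, but Rims1 was called in 6 and Rims2 in 16 of the 22 fits without 1 library. Stac3, a muscle channel adaptor at a low level here, rose from 0.665 ± 0.192 to 1.197 ± 0.218 FPKM (0.78, adjusted p = 0.0258) and was also higher in 15 month CR than in 5 month AL mice (0.95, adjusted p = 0.0324), in 17 and 16 of those fits.

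Of 3 further genes of the alpha subunit family, Cacna1f was below the level tested, and Cacna1s and the sodium leak channel Nalcn were not called in any comparison by limma, with 0 of these 2 at an unadjusted p under 0.05. Nalcn had group means from 19.1 to 21.7 FPKM. With CR at 15 months, CR at 5 months and the interaction, 0 genes of these lists were called by limma, while at an unadjusted p under 0.05 there were 4, 1 and 3 of the 29 tested, beside 17.1%, 4.65% and 7.66% of all genes. With the region score as a covariate, none of the 16 calls made on these lists passed the threshold. Few genes of any kind did in that fit. The share over all genes was 0.0353% with age in AL mice, 0.583% with age in CR mice and 0.624% for 15 month CR against 5 month AL mice. The lowest adjusted p among the 16 calls was 0.0700 in limma, for Cacng3 with age in CR mice. Some of the log2 fold changes stayed near their size in that fit, 0.70 for Cacng3 with age in CR mice, 0.67 for Cacng3 and 0.65 for Stac3 with age in AL mice, and 0.88 for Stac3 in 15 month CR against 5 month AL mice. Others were far smaller, -0.50 for Cacng8 and 0.04 for Rims2 with age in AL mice.

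Median FPKM per library was between 2.51 and 3.10, and 18281 to 19175 genes were above 0. Summed FPKM was less even, from 639064 to 1.30e+06, with 769987 the lowest at 5 months. At 15 months it was 710197, 639064 and 690405 in AL replicates 0 to 2, and 953198, 964105 and 929120 in 3 to 5. CR replicates 0 to 3 of that age had 710236 to 763660, and replicates 4 and 5 had 934066 and 956201. The part of this difference in the values above was not tested. All 6 CA1 markers were present in every group. Markers of choroid plexus, a tissue next to the hippocampus, varied widely, from a summed 0.224 to 234 FPKM over the libraries, and their part in the values above was not tested. Labels do not state whether mice shared a litter or cage.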

How the data were processed

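Hippocampal CA1 libraries of 22 mice were used in 4 groups taken from the labels. The deposited values are FPKM, which the authors made by aligning reads to mm10 with TopHat, removing likely PCR duplicates with Picard and estimating levels with Cufflinks, with corrections for fragment bias and multiply mapped reads. Whole reads could not be recovered (in 3 pairs of libraries at most 0.428% of low genes shared a ratio), so the depth behind single values is unknown, no counting interval is given, and precision comes from the spread between mice. No value column was left out.

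Genes whose mean FPKM reached 0.1 (16978 genes) were tested as log2(FPKM + 0.1). All 4 groups entered 1 fit in limma 3.58.1 (R 4.3.3, lmFit, contrasts, eBayes with trend), two-sided, with Benjamini-Hochberg adjustment over all genes within each contrast and a threshold of 0.05. A fold change on this scale understates the change of low genes. For single members an exact permutation test, two-sided, was added. Python 3.11.15, numpy 2.4.6, pandas 2.3.3 and matplotlib 3.10.9 were used, and the fit was tested on simulated data. Positions and coding sequences are from GENCODE M21 on GRCm38, the assembly behind mm10. The sequence windows were found by translating the longest coding sequence of each gene and matching conserved residues. Lengths were matched for 93.4% of the genes tested.

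The members and all gene lists were chosen with earlier results of these data known. Named were all 8 members, genes of the channel lists called in at least 1 contrast, and the 3 genes most like each member over the libraries. Marker genes are named as examples. Alternatives were the pseudocount, the filter, 2 scalings, the variance trend, a separate fit, the replicate number as a block, a region score (neocortex and subiculum list minus CA1 list) or thalamus score as a covariate, each library left out in turn and, chosen after seeing the data, removal of the trend on transcript length.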

Additional observations from a re-analysis of the deposited data

Results flagged for a closer look

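Of 32 combinations of a member and a group, 3 held a mouse far from the others of its group by Dixon's criterion, which chance alone meets in about 1 of 20 groups. Cacna1c in the 5 month CR replicate 0 was the highest of its group at 11.9 FPKM, with the nearest other mouse at 10.3 FPKM. Cacna1e in the 5 month AL replicate 4 was the lowest of its group at 22.9 FPKM, with the nearest at 30.0 FPKM. Cacna1i in the 15 month CR replicate 2 was the lowest of its group at 7.08 FPKM, with the nearest at 11.7 FPKM, and this library also had the lowest values of 6 further members.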

How the results depend on the processing

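Cacna1h with age in AL mice passed the threshold in all 22 fits that leave out 1 library (log2 fold change -0.93 to -0.68) and in 11 of 12 other settings, the exception being the region score covariate (-0.17, adjusted p = 0.833 in limma). The number of alpha subunits called with age in AL mice was 1. It was 2 in a separate fit, 0 with the region score covariate, and 1 to 2 when each library was left out, with Cacna1a as the second gene without the 15 month AL or CR replicate 2. With age in CR mice it was 0, and 0 to 1 when each library was left out (Cacna1g without the 5 month CR replicate 4, Cacna1i without the 15 month CR replicate 2). For CR at 15 months against AL at 5 months it was 0, and 0 to 1 (Cacna1i without the 15 month CR replicate 2). The counts for CR at 15 months, CR at 5 months and the interaction stayed at 0 in every setting run. The cause of these shifts was not tested.

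The replicate number as a block gave 2 called alpha subunits with age in AL mice, beside 22.1% of all genes. These were Cacna1h and Cacna1a (0.32, adjusted p = 0.0207 in limma). In 31 same-numbered pairs, deviations from the group means correlated with r that ranged from -0.139 to 0.163 and was above 0.1 in 2. These low values cannot show whether mice of the same number shared a litter, cage or run. With the block, 1.90% of all genes were called for CR at 15 months, against 0.742% without it.

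The following values changed sign. With the thalamus score covariate Cacna1c was 0.060 for age in AL, 0.099 for age in CR and 0.039 for the interaction, and Cacna1a was 0.043 for CR at 5 months. With the region score covariate Cacna1e was 0.10 for age in AL and Cacna1h was 0.21 for age in CR. For the interaction, Cacna1c was 0.0079 at a common median and 0.014 after quantile normalization. With the length trend removed, Cacna1c was -0.015 and Cacna1b -0.0030 for CR at 15 months against AL at 5 months. With each library left out, sign changes occurred within these ranges. For age in AL, Cacna1c ran from -0.18 to 0.0058 and Cacna1g from -0.0043 to 0.14. For CR at 15 months, Cacna1c ran from -0.027 to 0.26, Cacna1d from -0.15 to 0.023, Cacna1a from -0.15 to 0.015 and Cacna1b from -0.25 to 0.053. For CR at 5 months, Cacna1d ran from -0.062 to 0.043, Cacna1a from -0.051 to 0.043 and Cacna1i from -0.10 to 0.016. For age in CR, Cacna1c ran from -0.28 to 0.0033, Cacna1d from -0.00038 to 0.18 and Cacna1b from -0.27 to 0.028. For CR at 15 months against AL at 5 months, Cacna1c ran from -0.11 to 0.18, Cacna1d from -0.0083 to 0.17 and Cacna1b from -0.039 to 0.26. For the interaction, Cacna1c ran from -0.20 to 0.087, Cacna1d from -0.15 to 0.031 and Cacna1a from -0.15 to 0.019. Depth is unknown, and 5 or 6 mice a group limit the precision.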
